A study of Mus musculus with 30 samples.

Results

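The response of wild type mouse liver to cyproterone acetate was described from 6 of the 30 arrays of the series. The groups were chosen by their labels alone: 3 arrays of wild type mice given cyproterone acetate (CPA) were set against 3 arrays of wild type mice given the vehicle, corn oil. All mice were adult males on a C57BL/6J background. CPA was given daily by oral gavage at 160 mg/kg and is labelled as 6 days of treatment in wild type mice, whereas the corn oil group is labelled as 3 days, and the written protocol gives 3 days for every treatment with killing 1 day later. Agent and labelled duration therefore cannot be told apart in this comparison. The other groups used below were wild type mice given 1,4-dichlorobenzene (DCB, 600 mg/kg, 3 days), hCAR/hPXR mice (carrying human in place of mouse CAR and PXR) given corn oil for 3 days or CPA labelled as 6 days, and CARko/PXRko mice (both receptors deleted) given corn oil or CPA labelled as 3 days. The estimate of spread and the plot of levels also take in hCAR/hPXR and CARko/PXRko mice given DCB and PXRko mice (PXR deleted) given corn oil, all labelled as 3 days. Each group had 3 arrays, from groups stated to be of 5 mice, and the labels do not say that each array is a separate mouse, so each p-value reflects only array-to-array spread, part of which may be technical.

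CPA is a synthetic steroid with antiandrogenic, progestogenic and partial glucocorticoid activity. In rodent liver it is a classical ligand of PXR (encoded by Nr1i2), a nuclear receptor that, with CAR (encoded by Nr1i3), switches on genes for cytochromes P450, conjugating enzymes and transporters that clear drugs and steroids. CYP3A enzymes are the textbook PXR targets and CYP2B enzymes the textbook CAR targets, with much overlap. Glucocorticoids act through another nuclear receptor on genes such as Fkbp5 and the metallothioneins.

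Levels are log2 signals of Affymetrix probe sets, with 1 probe set per gene, and differences are CPA minus corn oil on the log2 scale ± SE with 3 arrays in each group. A gene was called at a limma adjusted p under 0.05 over 12795 genes tested. CPA changed 143 of them (1.12%), of which 62 rose (0.485%) and 81 fell (0.633%). The unadjusted p was under 0.05 for 1313 genes. The median difference over all genes tested was -0.01. In all 143 genes the 3 CPA arrays lay wholly outside the range of the 3 corn oil arrays, as they did in 26.1% of all genes tested. At least a 2-fold difference was found in 87 of the called genes, 36 higher and 51 lower. The spread was estimated from all 30 arrays, where the median residual SD was 0.230, against a median SD of 0.155 within the 2 groups compared. With the 9 wild type arrays alone, 593 genes were called (4.63%), 199 higher (1.56%) and 394 lower (3.08%), including 140 of the 143. With the 6 arrays alone 774 were called (6.05%), 252 higher (1.97%) and 522 lower (4.08%). Leaving out corn oil replicate 1, 2 or 3 left 41, 44 or 112 genes called, and leaving out CPA replicate 1, 2 or 3 left 38, 81 or 69.

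The 6 arrays were alike in their medians (5.38 to 5.42) and in their highest signals (about 15), and each had a mean correlation of 0.987 to 0.993 with the other arrays of its group. Hepatocyte markers were abundant and did not move as a list: 0 of 12 tested were called, and the log2 of their summed signals was 17.96 to 18.04 under corn oil and stayed inside that range under CPA, at 18.02 or less. Skeletal muscle transcripts, which were high on 4 other arrays of the series, were at the level of the corn oil arrays in all 6. Among those 4 is corn oil replicate 2 of the CARko/PXRko mice, where the median muscle transcript was 6.88 above the wild type controls. Counts of called genes for that genotype are given with and without these 4 arrays. Values of single genes in CARko/PXRko mice include that control array unless stated otherwise. Without the 4 arrays with muscle transcripts, CPA changed 210 of the 12795 genes tested in wild type mice (79 higher and 131 lower). These included 139 of the 143.

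**Figure D1:**
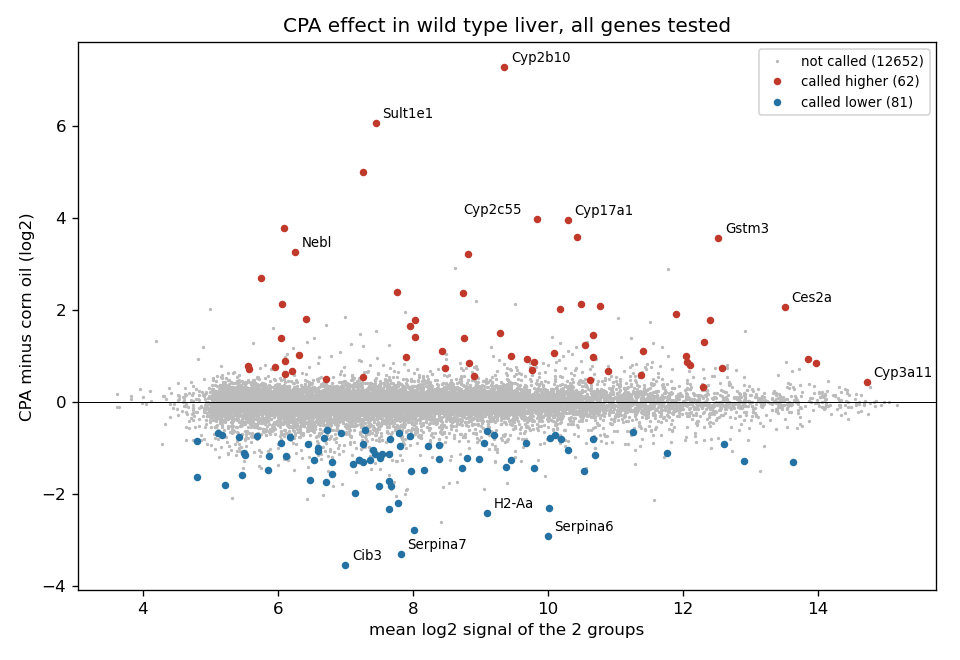
Each point is 1 of the 12795 genes tested, with the mean log2 signal of the CPA and corn oil groups in wild type liver on the x axis and the log2 difference, CPA minus corn oil, on the y axis. Red points are the 62 genes called higher and blue points the 81 called lower, and the largest rises reach 7.28 (Cyp2b10) and 6.08 (Sult1e1).

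The promoters of the 2 largest rises and the 2 largest falls with an entry in the RefSeq promoter table (build GRCm38.p6) are shown because these genes mark both ends of the response. Each window runs from 250 bases before to 50 bases after the start site, 5′ to 3′ on the gene's strand. Capitals mark matches, on either strand, to the nuclear receptor core motifs AGTTCA and AGGTCA or to the glucocorticoid-type motif TGTTCT. Cyp2b10 lies at chr7:25897408-25897707 on the plus strand, Sult1e1 at chr5:87591562-87591861 on the minus strand, Cib3 at chr8:72212788-72213087 on the minus strand, and Serpina7 at chrX:139085187-139085486 on the minus strand.
Cyp2b10: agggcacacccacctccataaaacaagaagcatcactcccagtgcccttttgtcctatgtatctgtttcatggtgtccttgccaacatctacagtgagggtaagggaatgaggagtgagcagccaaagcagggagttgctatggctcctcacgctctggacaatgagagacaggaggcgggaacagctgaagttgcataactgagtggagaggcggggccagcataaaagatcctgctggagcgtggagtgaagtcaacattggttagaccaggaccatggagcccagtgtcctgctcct
Sult1e1: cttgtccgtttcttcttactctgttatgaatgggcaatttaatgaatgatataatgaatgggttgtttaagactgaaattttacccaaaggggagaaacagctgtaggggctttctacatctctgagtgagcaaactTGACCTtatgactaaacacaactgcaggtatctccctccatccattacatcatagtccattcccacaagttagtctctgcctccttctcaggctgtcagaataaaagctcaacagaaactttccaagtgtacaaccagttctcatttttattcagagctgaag
Cib3: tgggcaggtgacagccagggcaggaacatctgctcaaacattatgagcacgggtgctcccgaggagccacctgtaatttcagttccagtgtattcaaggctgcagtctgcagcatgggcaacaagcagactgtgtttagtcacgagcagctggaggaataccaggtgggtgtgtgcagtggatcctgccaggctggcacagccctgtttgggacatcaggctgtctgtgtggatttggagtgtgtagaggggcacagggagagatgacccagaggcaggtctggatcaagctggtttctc
Serpina7: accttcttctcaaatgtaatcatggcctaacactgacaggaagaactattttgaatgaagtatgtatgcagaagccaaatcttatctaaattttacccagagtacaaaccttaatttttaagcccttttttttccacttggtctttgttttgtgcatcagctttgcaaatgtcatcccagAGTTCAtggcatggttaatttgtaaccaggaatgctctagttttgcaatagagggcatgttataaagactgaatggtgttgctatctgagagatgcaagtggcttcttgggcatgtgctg
The Sult1e1 window holds 1 match, to AGGTCA on the opposite strand at -113 to -108 from the start site, and the Serpina7 window holds 1 match, to AGTTCA at -70 to -65. The windows of Cyp2b10 and Cib3 hold none of these letters. Of the 10257 genes tested that have a window, 10.2% hold AGTTCA, 13% AGGTCA and 12.9% TGTTCT. Of the 55 rising genes with a window, 12.7% hold AGTTCA, 12.7% AGGTCA and 18.2% TGTTCT. Of the 61 falling genes with a window, 14.8%, 26.2% and 23% hold them in the same order. These shares are descriptions of short windows, not of bound sites.

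The largest rise belonged to Cyp2b10 (chromosome 7), a steroid- and drug-oxidizing P450 that is the standard CAR target gene of mouse liver. Its level was 5.29, 5.58 and 6.27 on the corn oil arrays and 13.19, 12.80 and 13.01 on the CPA arrays. The groups were far apart, with a difference of 7.28 ± 0.77 (156-fold, adjusted p = 6.73e-06). Cyp2b10 has 2 more probe sets, which moved from 4.02 and 4.41 on average to 13.09 and 13.38, so all 3 moved the same way. Cyp2c55 (chromosome 19), a P450 of the CYP2C family, was at 7.86, 7.81 and 7.85 under corn oil and 11.88, 11.81 and 11.82 under CPA. Its 3 arrays in each group nearly coincided, and it rose by 4.00 ± 0.51 (16-fold, adjusted p = 7.92e-05). Cyp2c29, an abundant CYP2C enzyme, rose by 0.86 ± 0.15 from a mean of 13.55 to 14.40. In all, 3 of 11 CYP2B and CYP2C genes tested rose and 0 fell, with a median of 0.86, and 10 of the 11 differences were positive. With the 9 wild type arrays 4 rose.

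The CYP3A genes moved in the same direction but from very different starting levels. Cyp3a11, the main CYP3A enzyme of male mouse liver, was at 14.42, 14.46 and 14.62 under corn oil and at 14.97, 14.94 and 14.94 under CPA. The groups did not overlap, and it rose by 0.45 ± 0.09 (adjusted p = 0.0109), but its CPA arrays lay close to the highest signals on the arrays. Cyp3a44, a CYP3A enzyme of female liver, was at 4.85, 4.89 and 5.23 and reached 6.95, 7.09 and 7.37, a rise of 2.15 ± 0.25 (4.43-fold, adjusted p = 2.15e-05). Cyp3a13 differed by 1.01 ± 0.30 (adjusted p = 0.113) and Cyp3a25 by 0.46 ± 0.12 (adjusted p = 0.0566), neither called. Thus 2 of 4 CYP3A genes tested rose and 0 fell, and all 4 were called higher with the 9 wild type arrays. Probe sets of such close relatives may pick up each other's transcripts, which was not tested. The same limit holds for the CYP2B and CYP2C genes, the further Cyp2b10 probe sets included, and for the glutathione S-transferases below.

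The receptor genes themselves were not called. Nr1i3, which encodes CAR, was at 9.32, 9.37 and 10.09 under corn oil and at 10.47, 10.27 and 10.50 under CPA, a difference of 0.82 ± 0.21 (adjusted p = 0.0575). Nr1i2, which encodes PXR, differed by 0.26 ± 0.23 (adjusted p = 0.850), and its groups overlapped. Of 17 steroid and nuclear receptor genes tested, 0 were called.

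Outside those families, further P450 genes were among the largest rises. Cyp17a1, the 17-hydroxylase and lyase of steroid synthesis, was at 9.11, 8.07 and 7.76 under corn oil and at 12.28, 12.26 and 12.31 under CPA. Its corn oil arrays spread over more than 1 log2 unit while the CPA arrays coincided, and it rose by 3.97 ± 0.69 (15.7-fold, adjusted p = 0.0035). Cyp26a1, which breaks down retinoic acid, rose by 2.37 ± 0.50 (adjusted p = 0.0147). Ces2a, a carboxylesterase that hydrolyses ester drugs, was at 12.34, 12.53 and 12.55 and reached 14.55, 14.55 and 14.57, a rise of 2.08 ± 0.20 (adjusted p = 1.27e-06). The flavin monooxygenases Fmo2 and Fmo1 rose by 1.78 ± 0.45 and 1.01 ± 0.20. Of 26 carboxylesterases and other phase I enzymes tested, 3 rose and 0 fell, with a median of 0.03. The called genes of that list were Ces2a and both monooxygenases.

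Conjugating enzymes gave the second largest rise and a large fall. Sult1e1, which sulfates and so inactivates estrogens, was at 4.36, 4.37 and 4.51 under corn oil, below the median signal of those arrays, and at 10.57, 10.38 and 10.53 under CPA. It rose by 6.08 ± 0.69 (67.6-fold, adjusted p = 1.78e-05). Sult1d1, a sulfotransferase of phenols and amines, rose by 1.78 ± 0.41. Ugt2b38, a glucuronosyltransferase, was at 9.47, 9.52 and 9.23 under corn oil and fell to 6.29, 6.59 and 7.03, a difference of -2.77 ± 0.60 (adjusted p = 0.0201). Of 22 glucuronidation and sulfation enzymes tested, 2 rose and 1 fell, and the median was 0.08.

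Glutathione S-transferases, which attach glutathione to electrophiles, rose in the mu class and in 1 theta member. Gstm3 was at 10.57, 10.84 and 10.79 under corn oil and at 14.36, 14.37 and 14.22 under CPA, a rise of 3.58 ± 0.47 (12-fold, adjusted p = 1.27e-04). A second Gstm3 probe set moved from 7.33 to 12.18 on average. Gstt3 rose by 2.14 ± 0.37, Gstm2 by 2.09 ± 0.26 and Gstm1 by 0.95 ± 0.16. These were the 4 called of 20 tested, with a median of 0.08, and 8 of the 20 differences were negative. Gstm3 and Gstm1 also stand on the list of NRF2 targets, antioxidant genes switched on by oxidants and electrophiles. On that list Cbr1, a carbonyl reductase, rose by 1.11 ± 0.20, which made 3 rises and 0 falls among 16 tested. Nqo1, a defining NRF2 target, was at 6.69, 6.46 and 7.27 under corn oil and at 6.91, 6.98 and 6.77 under CPA, with overlapping groups (difference 0.08 ± 0.36, adjusted p = 0.984). Of 5 AHR target genes, Cyp1a1 among them, 0 were called.

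**Figure D2:**
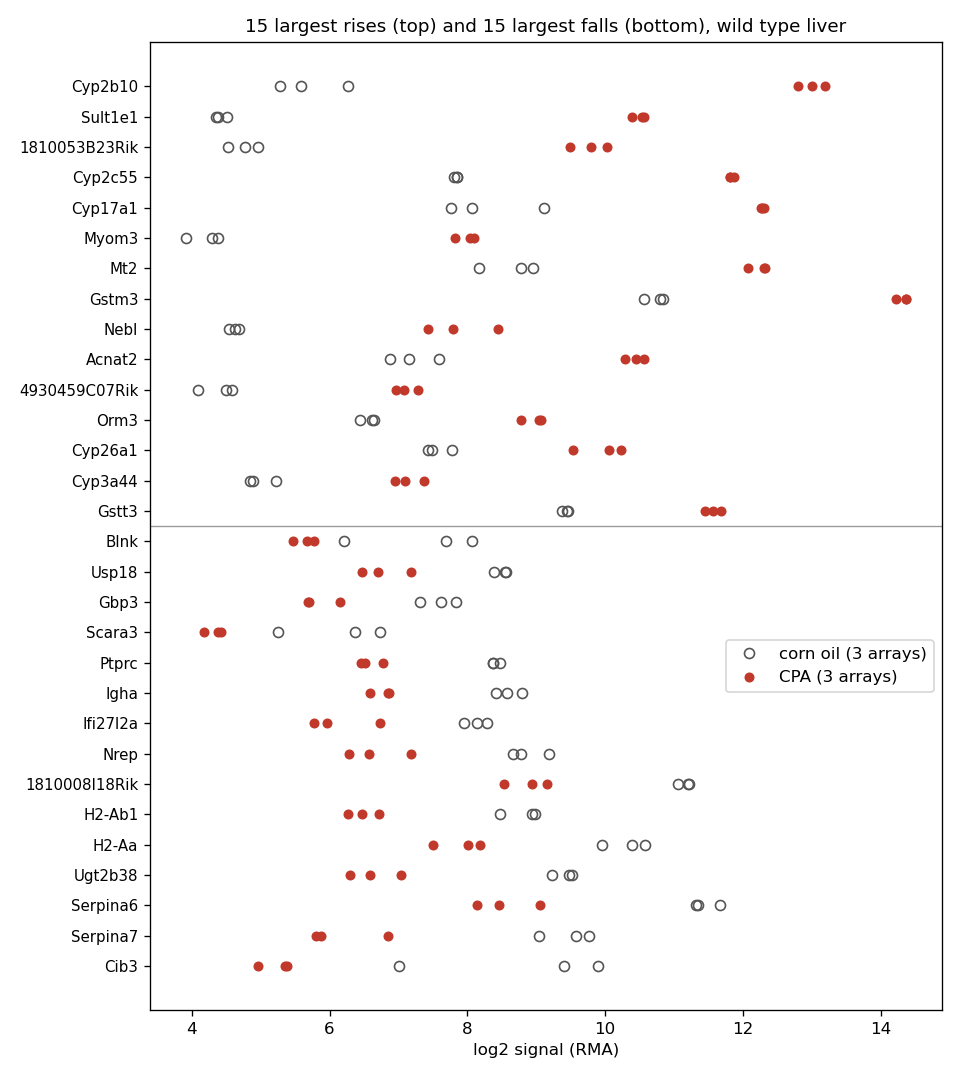
The x axis gives the log2 signal of each array and the y axis the 15 largest rises (upper rows) and 15 largest falls (lower rows) among called genes in wild type liver, with open circles for the 3 corn oil arrays and red points for the 3 CPA arrays. In every gene shown the red points lie wholly to 1 side of the open circles, and the corn oil arrays spread most in Cib3, from 7.01 to 9.90.

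The other large rises came from genes of several functions. 1810053B23Rik (chromosome 16), for which the sources used here give no function, was at 4.53, 4.95 and 4.78 and reached 9.80, 9.49 and 10.02. It rose by 5.02 ± 0.72 (32.4-fold, adjusted p = 4.12e-04). Myom3, a myomesin of the muscle sarcomere, rose by 3.79 ± 0.70 from levels of 3.92 to 4.38, while 0 of 16 other skeletal muscle genes tested were called. Nebl, which encodes the actin-binding protein nebulette, was at 4.54, 4.63 and 4.68 under corn oil and at 8.44, 7.42 and 7.79 under CPA. Its rise of 3.27 ± 0.22 had the smallest adjusted p of the named genes (1.87e-09), but its other 2 probe sets were dim in both groups and differed by -0.16 and 0.10. Outside these CPA arrays its highest level was 5.44 (DCB, CARko/PXRko replicate 3), where the array median was 5.42. Nebl thus entered the genes tested only through the arrays where it is high. Its p-values, here and in the contrasts below, are not independent of that filter. Acnat2, an acyltransferase of fatty acid and amino acid conjugation, rose by 3.22 ± 0.67, 4930459C07Rik by 2.71 ± 0.58 and Orm3, an acute phase glycoprotein, by 2.39 ± 0.51. For 6 of the 15 largest rises, including Sult1e1, Nebl and Cyp3a44, all 3 corn oil arrays lay below the array median. Those starting levels may lie at background.

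Genes known to respond to glucocorticoids were higher more often than lower. Fkbp5, a chaperone of the glucocorticoid receptor and one of its standard targets, was at 9.14, 8.96 and 9.37 under corn oil and at 11.76, 10.58 and 11.24 under CPA, a rise of 2.04 ± 0.29 (adjusted p = 4.12e-04). Mt2, a zinc-binding metallothionein, was at 8.78, 8.18 and 8.96 and reached 12.31, 12.07 and 12.33, a rise of 3.60 ± 0.79 (adjusted p = 0.0201). Its sister gene Mt1 differed by 2.89 ± 0.80 (adjusted p = 0.0840), not called, although its groups did not overlap. Ddit4, an mTOR inhibitor, rose by 1.04 ± 0.25 (adjusted p = 0.0390). With Sult1e1, 4 of 20 genes on the list rose and 0 fell, the median was 0.44, and 18 of the 20 differences were positive. Tat, the classical glucocorticoid-induced aminotransferase, differed by 0.57 ± 0.37 (adjusted p = 0.703), and Per1 by -0.61 ± 0.42 (adjusted p = 0.737). Of the 9 metallothionein and zinc transport genes, Mt2 alone was called, and without any one of 5 of the 6 arrays its call was lost.

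The hormone carriers of plasma were among the largest falls. Serpina7 encodes thyroxine-binding globulin and Serpina6 encodes corticosteroid-binding globulin, both secreted by hepatocytes. Serpina7 (chromosome X) was at 9.58, 9.05 and 9.77 under corn oil and at 5.81, 6.85 and 5.87 under CPA, a difference of -3.29 ± 0.67 (9.78-fold lower, adjusted p = 0.0119). Serpina6 (chromosome 12) was at 11.36, 11.33 and 11.67 and fell to 8.15, 9.05 and 8.46, a difference of -2.90 ± 0.42 (7.45-fold lower, adjusted p = 4.57e-04). They were the 2 called of 20 plasma carriers and lipoproteins tested, whose median was -0.02. Serpina6 was called whichever array was left out, while Serpina7 lost its call without corn oil replicate 1 or CPA replicate 1 or 3. The largest fall of all was that of Cib3 (chromosome 8), a calcium- and integrin-binding protein. It was at 9.90, 9.41 and 7.01 under corn oil and at 5.38, 5.35 and 4.96 under CPA, the latter below the array median, and differed by -3.54 ± 0.79 (adjusted p = 0.0231). Its difference ranged from -4.42, without corn oil replicate 3, to -2.98, and its call was lost in each of the 5 other fits that left out 1 array (adjusted p up to 0.184).

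Of 16 genes known to be higher in female mouse liver, 6 rose and 0 fell (median 0.75, 10 positive and 6 negative): Cyp2b10, Sult1e1, Cyp17a1, Cyp3a44, Fmo2 and Fmo1. The list holds 28 genes, of which 20 had a single-gene probe set and 16 were bright enough to be tested. A dim gene raised by a treatment can become bright enough while an unmoved one does not, so this count and median may lean upward. Acot3 on the same list differed by -1.90 ± 0.79 (adjusted p = 0.353). Of 16 genes known to be higher in male liver, 0 rose and 2 fell (median -0.19, 6 positive and 10 negative): Ugt2b38 and Cyp2u1, a fatty acid hydroxylase that fell by 1.25. Elovl3, a strongly male-biased elongase, differed by 0.24 ± 0.70 (adjusted p = 0.973). The growth hormone and IGF axis, whose pulsatile signal sets much of the sex difference in liver, had 0 of 15 genes called. Several of the 6 rising female-biased genes also stand on the P450, sulfation or glucocorticoid lists, so these counts are not independent.

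Lipid genes fell in a few cases. Acaa1b, a peroxisomal thiolase, was at 14.32, 14.19 and 14.33 under corn oil and at 12.54, 13.45 and 12.93 under CPA, a difference of -1.30 ± 0.28 (adjusted p = 0.0171). Bdh1, the dehydrogenase that forms the ketone body 3-hydroxybutyrate, was at 11.27, 11.17 and 11.37 and fell to 10.31, 10.15 and 9.95, a difference of -1.13 ± 0.26 (adjusted p = 0.0285). These were the 2 called of 22 PPAR alpha target and ketogenesis genes, whose median was -0.63 with 20 of 22 differences negative. Elovl5, an elongase of polyunsaturated fatty acids, fell by 1.28 and was the 1 called of 21 fatty acid and triglyceride synthesis genes (median -0.42, 18 negative). The desaturase Fads2 differed by -1.43 ± 0.42 (adjusted p = 0.108). No gene of bile acid synthesis (0 of 16), cholesterol synthesis and uptake (0 of 19), glucose production and use (0 of 16) or amino acid catabolism (0 of 19) was called. With the 9 wild type arrays 1, 1, 1 and 2 of these were.

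Among other liver functions, Hamp, which encodes the iron hormone hepcidin, was at 11.88, 11.31 and 11.79 under corn oil and at 13.02, 13.15 and 12.75 under CPA, a rise of 1.32 ± 0.31 (adjusted p = 0.0369). It was the 1 called of 15 iron genes. Alad, the second enzyme of heme synthesis, fell by 0.64 and was the 1 called of 14 heme genes. All 31 proteasome subunit genes had positive differences, from 0.05 to 0.55 with a median of 0.22, and 0 were called.

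**Figure D3:**
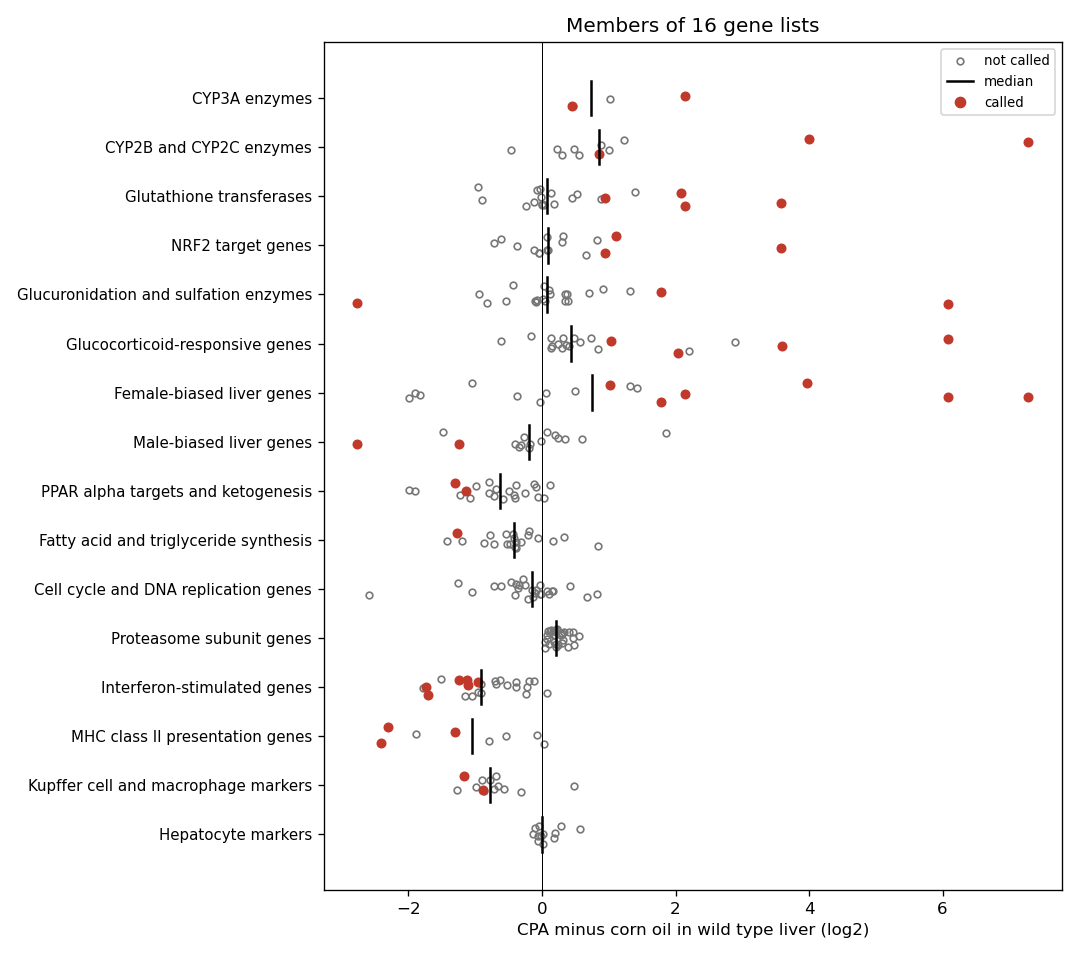
Each point is 1 tested gene of 16 lists, with its log2 difference, CPA minus corn oil in wild type liver, on the x axis, and the short black line is the list's median. Filled red points are called genes: they lie to the right in the P450, glutathione transferase and female-biased lists and to the left in the interferon, MHC class II and Kupffer cell lists, whose medians are -0.91, -1.05 and -0.78.

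The MHC class II genes, which present antigen on dendritic cells, B cells and macrophages, included H2-Aa and H2-Ab1 (chromosome 17). H2-Aa was at 10.39, 10.58 and 9.95 under corn oil and at 7.50, 8.19 and 8.02 under CPA, a difference of -2.41 ± 0.47 (5.30-fold lower, adjusted p = 0.0101). H2-Ab1 was at 8.93, 8.99 and 8.47 and fell to 6.27, 6.48 and 6.71, a difference of -2.31 ± 0.51 (adjusted p = 0.0225). Cd74, the invariant chain of the same complex, fell by 1.30, and H2-Eb1 differed by -1.88 ± 0.48 (adjusted p = 0.0566). In all 3 of 8 class II presentation genes fell and 0 rose, with a median of -1.05. All probe sets of H2-Aa (4) and H2-Ab1 (3) moved down, but with the mean of their probe sets in place of the brightest neither was called. Of 12 MHC class I and immunoproteasome genes, all had negative differences (median -0.26) and 0 were called.

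Interferon-stimulated genes are antiviral and signalling genes induced through STAT and IRF factors. Usp18, a protease that removes ISG15 and dampens the interferon receptor, was at 8.54, 8.57 and 8.39 under corn oil and at 6.71, 6.47 and 7.18 under CPA, a difference of -1.71 ± 0.29 (adjusted p = 0.00321). Gbp3, a guanylate-binding protein, was at 7.84, 7.62 and 7.31 and fell to 5.71, 6.15 and 5.69, a difference of -1.74 ± 0.40 (adjusted p = 0.0270). Ifit1 and Ifit2, RNA-binding antiviral proteins, fell by 1.24 and 1.11. The count was 6 falls and 0 rises of 24 tested, the median was -0.91, and 23 of 24 differences were negative. With the 9 wild type arrays 13 fell. Ifi27l2a, an interferon-inducible gene outside that list, fell by 1.97.

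The Ifit1 promoter (chr19:34640639-34640938, plus strand, GRCm38.p6) was chosen after its values were seen, to show the response element that defines this class. Capitals mark matches on either strand to GAAA, any 2 bases, GAAA.
Ifit1: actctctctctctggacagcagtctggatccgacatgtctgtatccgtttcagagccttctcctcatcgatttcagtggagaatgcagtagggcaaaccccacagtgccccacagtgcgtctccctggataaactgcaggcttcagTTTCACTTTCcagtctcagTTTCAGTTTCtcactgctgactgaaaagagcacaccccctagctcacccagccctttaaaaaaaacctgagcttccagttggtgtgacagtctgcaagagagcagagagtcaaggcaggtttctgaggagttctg
The window holds 2 matches, both on the opposite strand, at -104 to -95 and -85 to -76 from the start site. This motif is in 2.94% of the windows of all genes tested, in 12 of the 20 windows of interferon-stimulated genes tested and in 2 of the 5 windows of those that fell. Of all 61 falling genes with a window, 8 hold it (13.1%), and of 55 rising genes 1 does (1.82%).

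Of 13 Kupffer cell and macrophage markers, 2 fell and 0 rose. Timd4 fell by 1.16 (6.46, 6.53 and 6.35 under corn oil, 5.26, 5.32 and 5.27 under CPA) and Clec4f fell by 0.88 (10.17, 10.19 and 9.98 against 9.18, 9.18 and 9.35). Both encode surface receptors of resident Kupffer cells. The median was -0.78, 12 of 13 differences were negative, and 10 were called lower with the 9 wild type arrays. The log2 of the summed Kupffer signals was 13.31 to 13.58 under corn oil and 12.53 to 12.71 under CPA, and no marker of that list lay under the array median on all 6 arrays. Ptprc, the pan-leukocyte protein CD45, fell by 1.82 and was the 1 called of 9 lymphocyte markers tested, whose median was -0.53. Over the 13 lymphocyte markers measured the median was -0.26, 4 lay under the array median on all 6 arrays, and the log2 of the summed signals was 10.22 to 10.39 against 9.46 to 9.57. The immunoglobulin heavy chain gene Igha fell by 1.83 (adjusted p = 0.0324) and lost its call whichever array was left out. Blnk, a B cell adaptor protein, differed by -1.69 (adjusted p = 0.0414) and lost its call in 5 of 6 such fits. In bulk tissue, fewer cells of a type and less RNA per cell cannot be told apart. The part of these cells in the fall of the class II and interferon genes was not tested.

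Of 13 stellate cell and fibroblast markers 0 were called (median -0.30), of 12 sinusoidal endothelial markers 0 were called (median -0.41, 10 negative), and of 6 monocyte and neutrophil markers 0 were called. The endothelial marker Lyve1, a hyaluronan receptor, was at 6.96, 7.54 and 6.23 under corn oil and at 9.22, 8.76 and 8.62 under CPA, opposite in sign to the median of its list and not called (difference 1.96 ± 0.63, adjusted p = 0.160). Cela1, an elastase on the exocrine pancreas list, fell by 1.26, from a mean of 10.08 to 8.83, and was the 1 called of 5 tested there. The log2 of the list's summed signals was 10.42 to 10.71 under corn oil and 9.68 to 9.95 under CPA. The summed signal was thus lower under CPA, while over the 8 markers measured the median difference was 0.06. Ctrb1 differed by 0.47, Prss2 by 0.33 and Cela2a by -0.12. The 27 cell cycle and DNA replication genes had 0 calls in either direction and a median of -0.14. Ccnd1, the G1 cyclin D1, was at 10.13, 9.83 and 9.18 under corn oil and at 6.87, 7.65 and 6.85 under CPA, a difference of -2.59 ± 0.67 that missed the threshold (adjusted p = 0.0579), and it was called lower with the 9 wild type arrays (adjusted p = 4.83e-04). Ccnf, the mitotic cyclin F, differed by 0.82 ± 0.30 (adjusted p = 0.249). Of 56 lists in all, 24 had at least 1 called member and 32 had none.

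The remaining named falls were Nrep, 1810008I18Rik and Scara3. Nrep, a protein first described in regenerating nerve, was at 8.78, 8.66 and 9.18 under corn oil and at 6.57, 6.29 and 7.19 under CPA. 1810008I18Rik, for which the sources used here give no function, was at 11.22, 11.21 and 11.07 and fell to 8.53, 9.15 and 8.94. Scara3, a scavenger receptor family member, fell by 1.79 to levels below the array median. Among the 30 largest changes, 13 were called whichever array was left out: 10 rises and the falls of Serpina6, Ptprc and Usp18.

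CPA at the same dose was also given to hCAR/hPXR and CARko/PXRko mice, whose controls are separate arrays, the latter labelled as 3 days rather than 6. CPA changed 566 genes in hCAR/hPXR liver (4.42%: 195 higher, 1.52%, and 371 lower, 2.9%) and 702 in CARko/PXRko liver (5.49%: 279 higher, 2.18%, and 423 lower, 3.31%). Of the 62 wild type rises, 36 were also called higher in hCAR/hPXR mice (58.1% of the 62, 18.5% of the 195 rises there) and 34 in CARko/PXRko mice (54.8% of the 62, 12.2% of 279). Of the 81 wild type falls, 66 were also called lower in hCAR/hPXR mice (81.5% of the 81, 17.8% of 371) and 55 in CARko/PXRko mice (67.9% of the 81, 13% of 423). All 81 falls had a negative difference in both other genotypes, and 60 and 55 of the 62 rises had a positive difference in hCAR/hPXR and CARko/PXRko mice. Without the 4 arrays with muscle transcripts, CPA changed 584 genes in CARko/PXRko mice (4.56%: 239 higher, 1.87%, and 345 lower, 2.7%), which included 32 of the 62 rises (51.6% of the 62, 13.4% of the 239) and 46 of the 81 falls (56.8% of the 81, 13.3% of the 345).

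**Figure D4:**
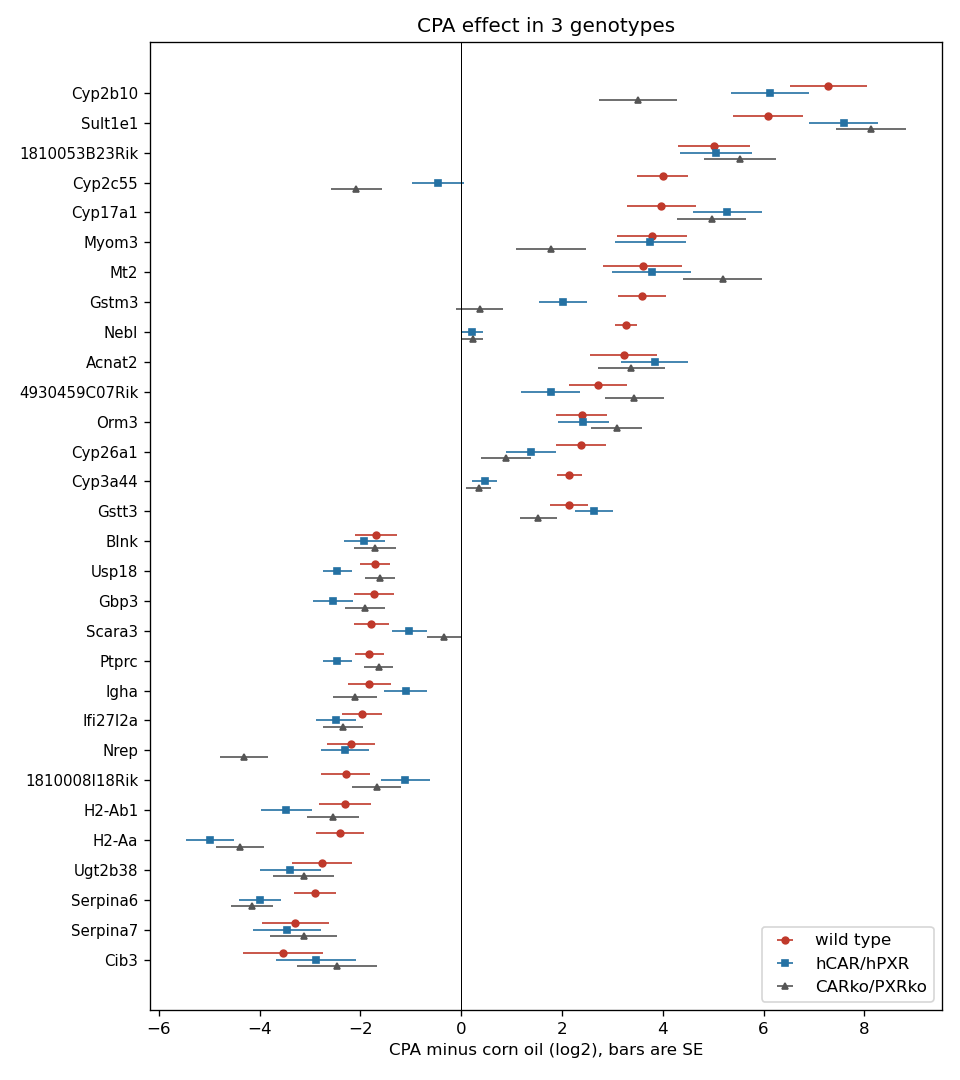
The x axis gives the log2 difference, CPA minus corn oil, with SE bars, for the 15 largest rises and 15 largest falls of wild type liver in wild type (red circles), hCAR/hPXR (blue squares) and CARko/PXRko mice (grey triangles). Sult1e1 and Cyp17a1 are high and Serpina6 low in all 3 genotypes, while the wild type points of Cyp2c55, Nebl and Cyp3a44 lie to the right of both others.

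The difference between genotypes was itself tested, and 9 genes were called between CARko/PXRko and wild type mice (0.0703%: 2 higher, 0.0156%, and 7 lower, 0.0547%) and 8 between hCAR/hPXR and wild type mice (0.0625%: 4 each way, 0.0313%). Cyp2c55 rose in wild type mice, fell by 2.08 in CARko/PXRko mice and differed by -0.46 in hCAR/hPXR mice. The wild type effect exceeded the others, with differences of -6.08 ± 0.72 (adjusted p = 5.82e-05) and -4.46 ± 0.72 (adjusted p = 0.00872). Its corn oil level was also lower in wild type mice (7.84) than in hCAR/hPXR (8.86) and CARko/PXRko mice (10.02). Nebl differed by 0.22 and 0.21 in the CARko/PXRko and hCAR/hPXR mice, and both were below the wild type effect (-3.04 ± 0.31, adjusted p = 9.48e-06, and -3.06 ± 0.31, adjusted p = 8.47e-06). Ces2a differed by -0.34 in CARko/PXRko mice, below wild type (difference -2.42 ± 0.28, adjusted p = 5.14e-05), and rose by 0.70 in hCAR/hPXR mice, where the difference from wild type was -1.38 ± 0.28 (adjusted p = 0.0572). Its mean corn oil level was likewise lower in wild type mice (12.47) than in CARko/PXRko (12.90) and hCAR/hPXR mice (13.08). Cyp3a44 differed by 0.35 and 0.47 in the same order, and the difference was called for CARko/PXRko mice (-1.80 ± 0.35, adjusted p = 0.0496) but not for hCAR/hPXR mice (adjusted p = 0.0803). Without the 4 arrays with muscle transcripts, 10 genes were called for CARko/PXRko (0.0782%), 6 of them among the 9. The others were Elovl3 (-4.54 ± 0.76), Nnmt (3.37 ± 0.61), Gadd45b (2.54 ± 0.41) and Plcxd2 (-1.76 ± 0.32). Nnmt and Plcxd2 are named only for this, after their values were seen. In the same fit 9 genes were called for hCAR/hPXR mice (0.0703%), 7 of them among the 8. Cyp3a44 then lost its call (-1.69 ± 0.39, adjusted p = 0.131), and Ces2a was called in hCAR/hPXR mice too (adjusted p = 1.56e-04).

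In the opposite direction, Ddit4 rose by 3.61 in CARko/PXRko and 2.86 in hCAR/hPXR mice, more than in wild type mice by 2.57 ± 0.35 (adjusted p = 5.98e-04) and 1.82 ± 0.35 (adjusted p = 0.0488). The latter was not called without the arrays with muscle transcripts (adjusted p = 0.112), nor was the rise of Ddit4 in wild type mice (adjusted p = 0.0555). Bdh1 fell by 3.54 in CARko/PXRko mice, further than in wild type mice (difference -2.41 ± 0.37, adjusted p = 0.00246). Hsd17b6, a steroid dehydrogenase, fell by 2.85 and 2.68 in the CARko/PXRko and hCAR/hPXR mice and differed by 1.75 ± 0.60 in wild type mice (adjusted p = 0.200), and both differences were called. Its wild type corn oil arrays ranged from 9.06 to 12.17.

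For the other leading genes the difference between genotypes was not called, which does not show that the effects were equal. Cyp2b10 rose by 6.13 in hCAR/hPXR and by 3.51 in CARko/PXRko mice, and the differences from wild type were -1.16 ± 1.09 (adjusted p = 1.00) and -3.78 ± 1.09 (adjusted p = 0.369). Gstm3 differed by 0.36 in CARko/PXRko mice (difference from wild type -3.22 ± 0.67, adjusted p = 0.0827). Sult1e1 rose by 8.13 and 7.59 in the CARko/PXRko and hCAR/hPXR mice, Cyp17a1 by 4.97 and 5.28, and Fkbp5 by 3.13 and 3.12. Serpina6 fell by 4.15 and 4.00 and Serpina7 by 3.13 and 3.45 in the same order. H2-Aa fell by 4.40 and 4.99 in CARko/PXRko and hCAR/hPXR mice. In the comparison with CARko/PXRko mice, genotype and labelled duration (3 against 6 days) cannot be told apart.

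**Figure D5:**
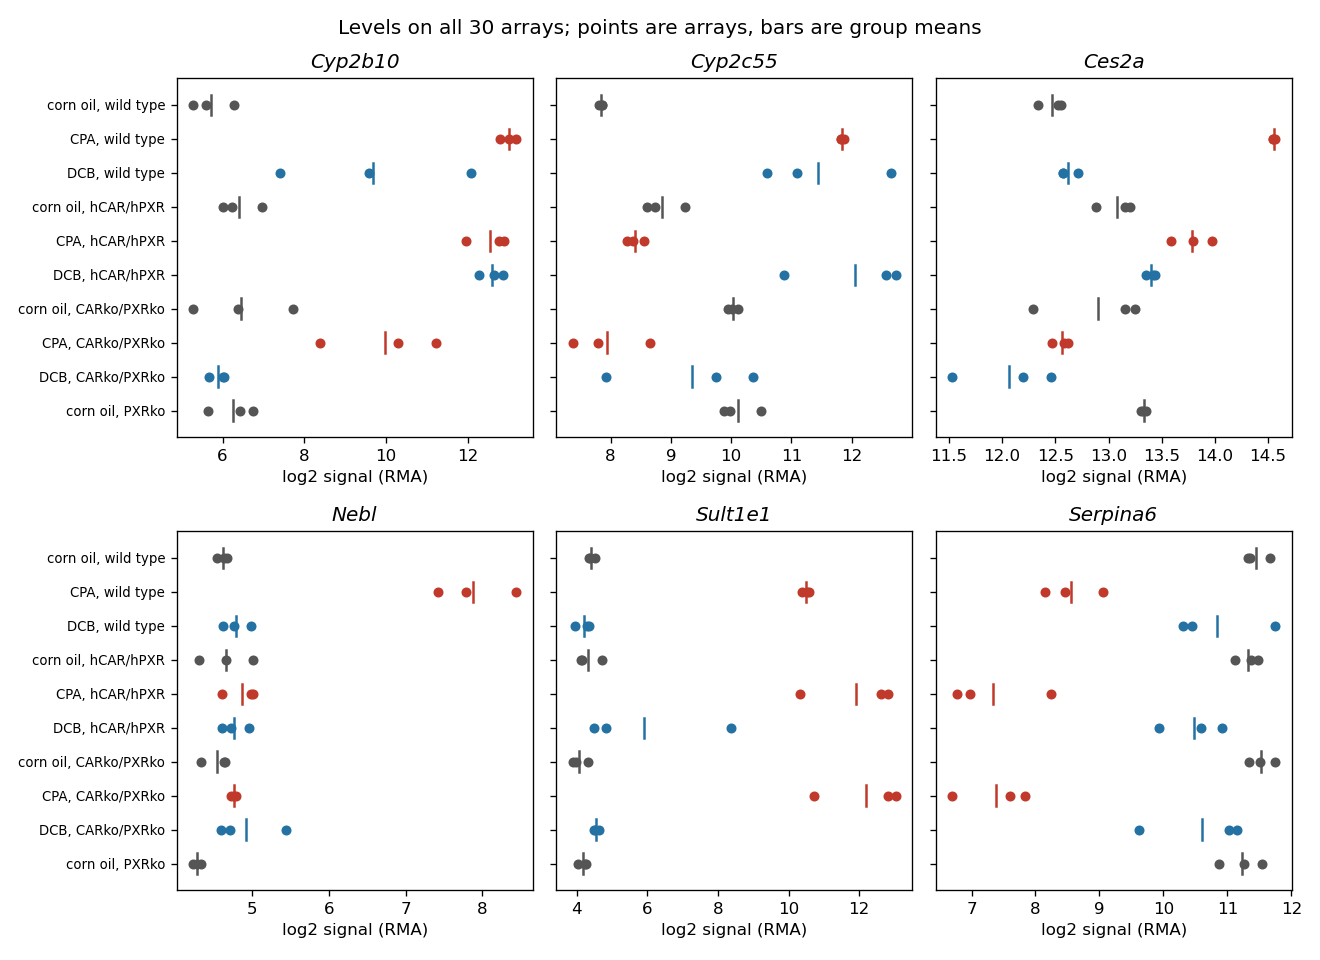
The x axis of each panel gives the log2 signal on all 30 arrays, with a row for each of the 10 groups, points for arrays, a vertical bar for the group mean, and grey, red and blue for corn oil, CPA and DCB. CPA raised Sult1e1 and lowered Serpina6 in 3 genotypes, whereas the CPA arrays of wild type mice alone are high in Nebl, at 7.42 to 8.44.

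CPA and DCB, a chlorinated benzene that is structurally unrelated to the steroid, were compared directly in wild type mice. Doses and labelled durations differ (160 mg/kg labelled as 6 days against 600 mg/kg for 3 days), so agent, dose and duration cannot be told apart. The direct contrast of the treated groups called 257 genes (2.01%), 96 higher (0.75%) and 161 lower (1.26%) under CPA. Sult1e1 was 6.30 ± 0.69 higher under CPA (adjusted p = 1.17e-05), at 10.49 against 4.20 on average. Cyp17a1 was higher by 4.55 ± 0.69, Nebl by 3.09 ± 0.22, Ces2a by 1.93 ± 0.20, Cyp3a44 by 1.80 ± 0.25 and Fkbp5 by 1.65 ± 0.29, and Serpina6 was lower (-2.28 ± 0.42, adjusted p = 0.00373). Cyp2b10 was 3.30 ± 0.77 higher (adjusted p = 0.0215), with DCB arrays at a mean of 9.69 and an SD of 2.34.

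Of the families above, the contrast called 3 of 11 CYP2B and CYP2C genes and 2 of 4 CYP3A genes higher under CPA, and 1 of 20 glutathione transferases higher and 3 lower. Several genes that rose most under CPA did not pass it. Cyp2c55 differed by 0.39 ± 0.51 between CPA and DCB (adjusted p = 0.828), Gstm3 by 0.76 ± 0.47 (adjusted p = 0.513), Gstm2 by 0.22 ± 0.26 (adjusted p = 0.813) and Mt2 by 0.53 ± 0.79 (adjusted p = 0.854). Against the shared corn oil arrays, DCB changed 94 genes (0.735%: 78 higher, 0.61%, and 16 lower, 0.125%), and it raised Cyp2c55 by 3.60, Gstm3 by 2.83 and Gstm2 by 1.87. Mt2 differed by 3.07 under DCB, the largest difference on the metallothionein list, and was not called. For the lists that follow, DCB against corn oil raised 10 of 16 NRF2 targets (median 1.11), 11 of 31 proteasome genes (median 0.61), 2 of 14 heme genes (median 0.21) and 0 of 27 cell cycle genes (median 0.25). CPA against corn oil left 3, 0, 0 and 0 of them called higher, with medians of 0.09, 0.22, -0.10 and -0.14. In the direct contrast, 5 of 16 NRF2 targets were lower under CPA than under DCB and 0 were higher (median -0.50), Nqo1 among them (-2.06, adjusted p = 0.00239). Of 27 cell cycle genes 4 were lower and 0 higher (median -0.38), including the helicase subunit gene Mcm5 (-2.77, adjusted p = 0.00618). Of 31 proteasome genes 4 were lower and 0 higher (median -0.36), and of 14 heme genes 4 were lower and 0 higher (median -0.35).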

How the data were processed

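Liver RNA of mice in 30 samples was measured on Affymetrix 3' expression arrays. The deposited values are log2 signals per probe set, made by the authors with RMA per the submitters' processing notes (version not given in the sources used here). RMA sets every array to a common distribution, so a shift of all genes would not be seen.

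Of 45037 probe sets, 34945 name a single gene (932 several, 9160 none). Each of 18193 genes was read from its brightest probe set on average across all 30 arrays, and the 12795 genes above the array median on at least 3 arrays were tested. A limma fit (R 4.3.3, limma 3.58.1) gave each of the 10 groups a mean and moderated the spread over all arrays. P-values were adjusted by Benjamini-Hochberg over all genes tested, and every adjusted p comes from this fit unless another is named. The code was tested on simulated data. Arrays were assigned by their labels. The number of arrays limits the precision. Named genes are the 15 largest called changes each way with non-overlapping groups, Nr1i2, Nr1i3, Cyp2b10, Cyp3a11, the 4 members of smallest p from every list, and further called members of lists with 5 calls or fewer. Members and lists were chosen with earlier results of these data known. Same-numbered arrays did not deviate together (r from -0.14 to 0.04), so the numbers were not used as pairs. Filters, normalization, probe set choice, array weights, the arrays fitted and single arrays left out were varied.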

Additional observations from a re-analysis of the deposited data

Results flagged for a closer look

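The effect of CPA in CARko/PXRko mice minus that in wild type mice passed the limma test of the difference for 9 genes. The differences were -6.08 for Cyp2c55, -4.60 for Hsd17b6, -3.04 for Nebl, -2.42 for Ces2a, -2.41 for Bdh1, -1.80 for Cyp3a44 and -0.60 for Nfs1, a cysteine desulfurase. They were 2.57 for Ddit4 and 1.31 for Med17, a Mediator subunit. Neither Nfs1 nor Med17 was called in wild type mice (0.16 and -0.14). The calls of Cyp3a44, Nfs1 and Med17 were at adjusted p = 0.0496, 0.0486 and 0.0496 and were lost without the arrays with muscle transcripts.

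The same test between hCAR/hPXR and wild type mice passed for 8 genes. The differences were -4.46 for Cyp2c55, -4.43 for Hsd17b6, -3.06 for Nebl, -2.80 for Igfbp2, 1.82 for Ddit4, 1.87 for Gin1, 1.65 for Slc8a1 and 3.25 for Tcim. Nfs1, Med17, Igfbp2, Gin1, Slc8a1 and Tcim are named here because they passed these tests, after their values were seen. Both sets of differences share the wild type arrays. Igfbp2, Gin1, Slc8a1 and Tcim were not called in wild type mice (0.16, -0.17, 0.19 and -0.62).

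Probe sets outside the gene table were fitted apart. Of 3700 tested that name several genes or none, 32 were called for CPA in wild type mice, 10 higher and 22 lower. They were 14 of 616 that name several genes and 18 of 3084 that name none. Among the genes tested, 143 of 12795 (1.12%) were called. The largest rise with no gene annotated was 5.01 ± 0.43 (limma adjusted p = 1.38e-07), from 4.79, 4.39 and 5.31 under corn oil to 9.85, 9.43 and 10.24 under CPA.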

How the results depend on the processing

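No gene followed for the CPA effect in wild type mice was counted as reversed under any alternative. That count does not exclude a change of sign in genes that were not called. The probe sets of Epcam, which was not called, differed by 0.13 (the one used) and -0.94. Reversal of single genes was not counted in the other comparisons. The 143 genes called for CPA in wild type mice became 1798 with array weights and 774 with only the groups compared. They became 593 with the 9 wild type arrays, 87 with at least a 2-fold difference, and 38 to 112 when 1 array was left out. Without the arrays with muscle transcripts they became 210. The weights were estimated with a convergence warning. The 257 genes called between CPA and DCB became 1614 with array weights, 781 with only the groups compared and 1132 with the 9 wild type arrays. They became 115 with at least a 2-fold difference, 439 without the arrays with muscle transcripts, and 81 to 229 with 1 array left out. The 9 genes differing between CARko/PXRko and wild type mice became 5 with a trended, robust fit and 5 to 14 with 1 array left out. Without the arrays with muscle transcripts 10 were called, 6 of them among the 9, and Cyp3a44, Med17 and Nfs1 were lost (adjusted p = 0.131, 0.110 and 0.131), an alternative whose gene values were added after seeing the data. The 8 differing between hCAR/hPXR and wild type mice became 5 when probe sets of a gene were averaged, 81 with array weights, and 1 to 10 with 1 array left out, the lowest without CPA wild type replicate 3. The cause of these shifts was not tested. Signal near background or near the highest signals limits what the dimmest and brightest genes can show.

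With the replicate number as a block (replicate block), 148, 265, 8 and 8 genes were called in these comparisons. The arrays share only a number: the correlation of same-numbered deviations was between -0.14 and 0.04.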
